A study of Mus musculus with 12 samples.

Results

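The cytokine genes described here are Tnf, Il1a, Il1b and Il6, which code for inflammatory cytokines, and Il1rn, Il10 and Tgfb1, which code for proteins that restrain inflammation. They were chosen by name, as feature names that equal 1 of these 7 symbols or hold it as a part of a joined name, and 7 of the 19549 features in the count files matched, each as a symbol of its own. All 7 had a count in at least 1 library. A filter on low counts kept 10421 features for testing, among them 4 of the 7 genes (Tnf, Il1b, Il1rn and Tgfb1), while Il1a, Il6 and Il10 were too sparse for the test. A difference is said to be called where its Benjamini-Hochberg adjusted p, over the 10421 features, in edgeR's quasi-likelihood test is under 0.05.

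The cells were bone marrow-derived macrophages (BMDMs), which are macrophages grown in culture from marrow, here of naive female FVB mice. They received either IFNG (interferon gamma) at 200 units/mL or IL4 (interleukin 4) at 40 ng/mL, in both cases for 4 h. About 10% of the cells were lysed for total mRNA, and the lysate of the others was spun through a sucrose gradient of 5 to 50%, from which mRNA carrying more than 3 ribosomes was pooled as polysome-associated mRNA. This gave 4 groups of 3 libraries, namely IFNG total, IL4 total, IFNG polysome and IL4 polysome. No untreated cells were analysed here, so each polarization difference is IFNG relative to IL4. Nothing in the labels tells if the replicates were separate mice or cultures. The p-values therefore measure only the spread among these libraries, which may be technical.

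Tumour necrosis factor, the product of Tnf, signals through 2 receptors to NF-kB, MAP kinases and cell death pathways. IL-1 alpha and IL-1 beta, the products of Il1a and Il1b, act on the same receptor, and the product of Il1rn, the IL-1 receptor antagonist, occupies that receptor without activating it. IL-6 and IL-10 both signal through JAK kinases and STAT3, and in macrophages IL-10 is known for holding back inflammatory cytokine genes. TGF-beta 1, the product of Tgfb1, is made as a latent protein that has to be released before it can act on its receptors and the SMAD proteins. Macrophages control cytokine output at transcription and also after it, through proteins that bind AU-rich elements and stem loops in cytokine mRNA and change its decay or its loading with ribosomes.

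Promoter sequences are shown for Tnf and Il1rn, which differed between the polarizations, and for Tgfb1, for which no polarization difference was called. Each is the 250 bases before an annotated transcription start, from RefSeq on build GRCm38.p6, which mm10 stands for. They lie at chr17:35202008-35202257 on the minus strand for Tnf, at chr2:24345041-24345290 on the plus strand for the second of 3 annotated Il1rn starts, and at chr7:25686752-25687001 on the plus strand for Tgfb1. Capitals mark matches to the motifs named in the next paragraph.
Tnf: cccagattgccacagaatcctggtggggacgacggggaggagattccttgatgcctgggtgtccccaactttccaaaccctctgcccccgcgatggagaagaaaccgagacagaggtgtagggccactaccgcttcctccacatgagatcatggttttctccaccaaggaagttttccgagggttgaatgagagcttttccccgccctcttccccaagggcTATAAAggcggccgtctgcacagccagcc
Il1rn: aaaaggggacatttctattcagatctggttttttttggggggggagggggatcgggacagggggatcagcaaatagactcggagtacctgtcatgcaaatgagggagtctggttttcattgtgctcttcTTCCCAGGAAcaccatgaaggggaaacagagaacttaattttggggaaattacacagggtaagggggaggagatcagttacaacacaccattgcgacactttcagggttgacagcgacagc
Tgfb1: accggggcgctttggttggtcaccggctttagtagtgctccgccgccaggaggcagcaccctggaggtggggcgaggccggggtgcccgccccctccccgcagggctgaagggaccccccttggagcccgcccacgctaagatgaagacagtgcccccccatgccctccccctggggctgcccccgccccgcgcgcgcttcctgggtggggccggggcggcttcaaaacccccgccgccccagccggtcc

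The motifs, 5 in number, were searched on both strands: the STAT6 element as TTCNNNNGAA, the interferon response element ISRE as TTTCNNTTTC, AP-1 as TGANTCA, the TATA box as TATAAA, and NF-kB by its name. Among all 32851 promoter windows of that length, 5.85% held a STAT6 match, 2.98% an ISRE match, 6.75% an AP-1 match, 12.4% a TATA match and 3.9% an NF-kB match. Windows were found for 6 of the 7 genes, 8 windows in all because Il1rn has 3 starts. A TATA match lay 24 to 29 bases before the Tnf start, 26 to 31 before that of Il1b and 27 to 32 before that of Il1a. The Il1rn window shown held a STAT6 match 112 to 121 bases before its start, and the window of the third Il1rn start, which overlaps it, held the same match at 192 to 201. An AP-1 match lay 135 to 141 bases before the first Il1rn start and 6 to 12 before the Il1a start. In the Il6 window, AP-1 matched at 243 to 249 and NF-kB at 35 to 44 bases before the start. The Tgfb1 window held no match to any of the 5. A match is a run of letters and was not tested for binding.

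The genes lie at 6 places in GRCm38.p6, Il1a and Il1b close together. Tnf spans chromosome 17 from 35199367 to 35202007, Il1a chromosome 2 from 129299609 to 129310186, Il1b chromosome 2 from 129364569 to 129371164 and Il1rn chromosome 2 from 24336860 to 24351491. Il6 spans chromosome 5 from 30013114 to 30019975, Il10 chromosome 1 from 131019845 to 131024970, and Tgfb1 chromosome 7 from 25687002 to 25705077.

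Libraries held 10443200 to 22014162 counts for total mRNA and 2563955 to 8789480 for polysome-associated mRNA, so that 3 counts stood for 0.184 to 1.13 CPM (edgeR's library-scaled count unit, on TMM-scaled libraries). All 13 macrophage markers were among the features tested. Their summed level was 12847 to 24842 CPM in IFNG total, 8222 to 14089 in IL4 total, 10877 to 16810 in IFNG polysome and 8073 to 8901 in IL4 polysome libraries. Markers of other cell types were lower in sum, and their part in the cytokine results was not tested. Of 8 T and NK cell markers 3 had a count, Cd4 at up to 10.3 CPM being the highest, and Cd3e, Cd8a, Ncr1, Nkg7 and Gzmb had 0 counts. Of 5 B cell markers 3 had a count, Cd79b at up to 6.15 CPM being the highest, and Ms4a1 and Pax5 had 0. Of 7 mast cell and basophil markers 3 had a count, Gata2 leading with 43 counts in all, and Cpa3, Fcer1a, Ms4a2 and Tpsb2 had 0. Dendritic cell markers (8 of 9 with a count, Flt3 at 0, Itgax leading) summed to 28.3 to 41.3 CPM in IFNG total and 51.7 to 171 in IL4 total libraries, without overlap, and to 37.2 to 82.4 and 43.1 to 255 CPM in the polysome libraries. Stromal markers (6 of 7, Lepr at 0) reached at most 42.0 CPM. Erythroid and megakaryocyte markers (5 with a count, Pf4 leading) summed to 337 to 767 and 528 to 1105 CPM in IFNG and IL4 total libraries, and to 36.6 to 117 and 157 to 329 CPM in the polysome libraries, where the polarizations did not overlap. T and NK cell markers summed to 3.54 to 7.10 CPM in IFNG total and 1.27 to 1.89 CPM in IL4 total libraries, without overlap. A single feature, Lars2, took 0.341 to 2.00% of the counts of total libraries and 1.78 to 29.3% of those of polysome libraries. In bulk RNA, fewer cells making a cytokine and less of its mRNA per cell cannot be told apart. CPM is not corrected for transcript length, so levels are compared within a gene and not between genes.

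Tnf was far higher with IFNG than with IL4. In total mRNA its level was 1139, 1755 and 628 CPM in IFNG replicates 1, 2 and 3, and 136, 56.2 and 29.4 CPM in the IL4 replicates. The lowest IFNG library stood above the highest IL4 library, and the IL4 libraries themselves differed 4.62-fold between the highest and the lowest. The difference was 15.9-fold (log2 fold change 3.99, SE 0.63, 95% interval 2.69 to 5.29, adjusted p = 0.000108).

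Tnf mRNA on polysomes showed the same order of groups. The levels were 302, 667 and 587 CPM with IFNG and 48.4, 15.6 and 14.4 CPM with IL4. The polarizations did not overlap here either, and IL4 replicate 1 was again the highest of its group. The difference was 19.6-fold (log2 fold change 4.29, SE 0.64, adjusted p = 6.25e-05). Without that IL4 replicate 1 library the log2 fold change was 5.12, and in total mRNA it was 4.78 without the IL4 replicate 1 library.

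Ordered by mean, Tnf stood at 1174 ± 564 CPM in IFNG total, 519 ± 192 in IFNG polysome, 73.8 ± 55.3 in IL4 total and 26.1 ± 19.3 in IL4 polysome libraries (SD, n = 3). The 2 IL4 groups lay within their spread of each other, while the other neighbours in this order did not.

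Il1b, the gene of the IL-1 beta precursor, was higher in each IFNG library than in any IL4 library of the same fraction, but at low counts. Total mRNA held 15.5, 11 and 14.8 CPM with IFNG and 5.66, 1.96 and 0.0633 CPM with IL4, the last of these being a single count. The IFNG libraries were close together and the IL4 libraries were not. The difference of log2 2.43 (SE 0.85, 95% interval 0.66 to 4.20) missed the threshold of 0.05, with an adjusted p of 0.0725. Over 6984 features, same-numbered IFNG and IL4 total libraries deviated together, with a lowest r of 0.15. Il1b itself did not follow this in replicate 3, which was above its group mean with IFNG and the lowest with IL4. With the replicate number as a block the Il1b difference passed in edgeR, at log2 3.24 and an adjusted p of 0.00753.

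On polysomes Il1b was at 10.4, 19.5 and 4.80 CPM with IFNG and 4.50, 2.48 and 0 CPM with IL4. The highest IL4 library lay just under the lowest IFNG library. The log2 difference was 2.19 (SE 0.90, adjusted p = 0.114), and 2.49 with the replicate block (adjusted p = 0.0416). A block fitted to the polysome libraries alone gave 2.33 (adjusted p = 0.0655), and to the total libraries alone 3.02 (adjusted p = 0.0151). Il1b averaged 13.8 ± 2.40 CPM in IFNG total, 11.6 ± 7.44 in IFNG polysome, 2.56 ± 2.84 in IL4 total and 2.32 ± 2.25 in IL4 polysome libraries, and within each polarization the fractions lay within their spread.

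Neutrophils are another known source of Il1b, Il1rn and Tnf mRNA. All 8 neutrophil markers had a count in some library and 3 passed the filter. Their summed level was 10.5 to 32.0 CPM in IFNG total and 1.33 to 4.97 CPM in IL4 total libraries, without overlap, and 3.99 to 8.13 CPM in IFNG polysome and 1.23 to 11.3 CPM in IL4 polysome libraries, with overlap. Ly6g, a defining neutrophil marker, reached at most 0.173 CPM, while S100a9 reached 15.5, S100a8 14.5 and Retnlg 8.85 CPM. The part of these markers in the cytokine results was not tested.

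Il1a and Il6 were barely detected. Il1a, the gene of IL-1 alpha, had 6, 1 and 11 counts in total mRNA of IFNG cells and 2, 2 and 0 in that of IL4 cells. Its polysome libraries held 15, 6 and 0 counts with IFNG and 0, 2 and 0 with IL4. The groups overlapped in both fractions. Pooled over libraries, the 18 IFNG and 4 IL4 counts of total mRNA gave a ratio of 5.75 (95% counting interval 1.89 to 23.3), and the 21 and 2 polysome counts a ratio of 7.15 (1.75 to 62.9). These intervals cover counting error only and not the spread between libraries. With no filter on low counts, edgeR gave Il1a an adjusted p of 0.401 in total and 0.463 in polysome-associated mRNA.

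Il6 total mRNA gave 8, 5 and 10 counts with IFNG and 2, 4 and 7 with IL4, and there were 2, 4 and 2 against 5, 0 and 2 counts on polysomes. On polysomes the groups overlapped. In total mRNA the raw counts overlapped, but the CPM did not: the lowest IFNG library was at 0.507 CPM and the highest IL4 library at 0.443 CPM. The pooled ratio was 2.26 (1.10 to 4.86) for the 23 and 13 counts of total mRNA. It was 0.778 (0.247 to 2.52) for the 8 and 7 polysome counts, an interval that spans 1. Without the filter its adjusted p was 0.714 in total and 1.00 in polysome-associated mRNA, so no Il6 difference was detectable at this depth. The group means of Il6 lay between 0.278 and 0.651 CPM and those of Il1a between 0.0892 and 0.861 CPM, and neighbours in the order of means lay within their spread for both genes.

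Il1rn, the antagonist of the IL-1 receptor, was higher with IFNG, together with Tnf. Total mRNA held 1425, 1098 and 1444 CPM with IFNG and 86.9, 53.3 and 27.5 CPM with IL4. The IFNG libraries were close together and far above the IL4 libraries. The difference was 23.7-fold (log2 fold change 4.56, SE 0.59, 95% interval 3.34 to 5.79, adjusted p = 9.01e-06).

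On polysomes Il1rn was at 1047, 952 and 602 CPM with IFNG and 98.1, 48.2 and 17.8 CPM with IL4. The groups were again separate, and IL4 replicate 1 was the highest of its group, as it was for Tnf and Il1b in both fractions. The difference was 15.7-fold (log2 fold change 3.98, SE 0.58, adjusted p = 4.34e-05), and the log2 fold change was 4.72 without the IL4 polysome replicate 1 library. The group means of Il1rn ranked in the order IFNG total (1322 ± 194 CPM), IFNG polysome (867 ± 235), IL4 total (55.9 ± 29.8) and IL4 polysome (54.7 ± 40.6), of which the IL4 pair lay within its spread.

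**Figure D1:**
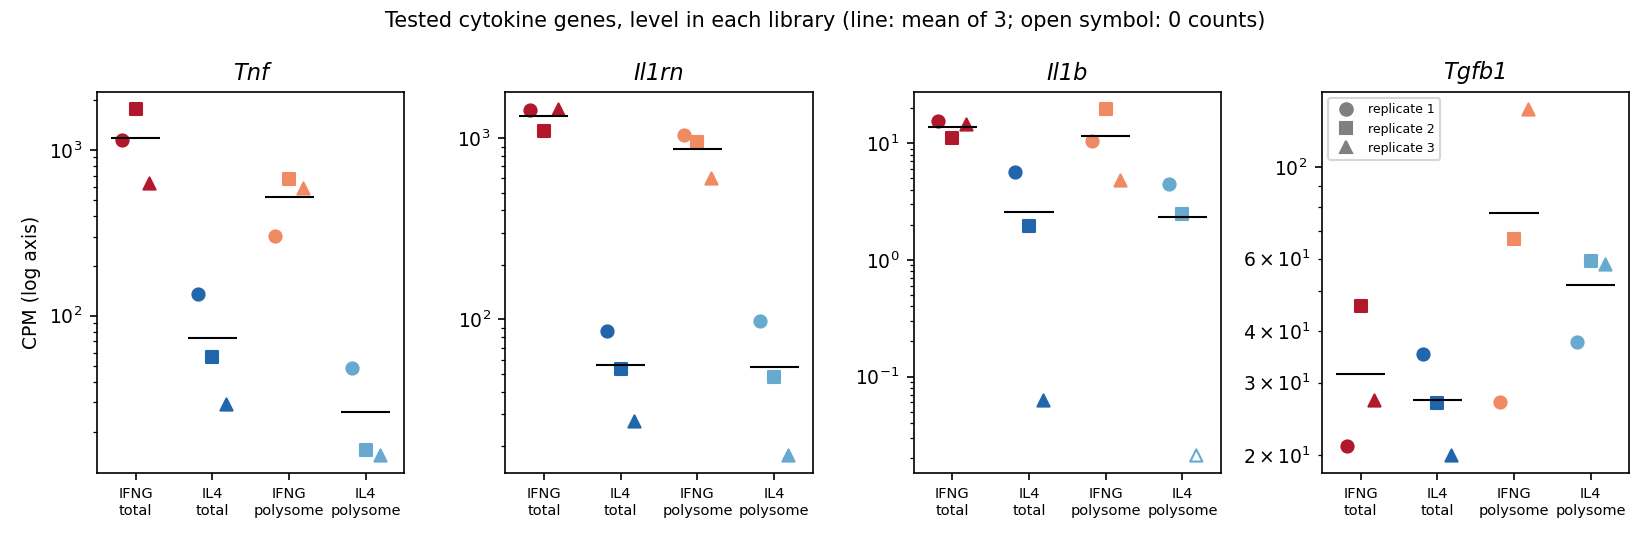
Level of the 4 tested cytokine genes in each library, in CPM on a log axis, by group; symbols are libraries (open at 0 counts, placed at the foot of the axis), their shape the replicate, and lines the group means. The IFNG and IL4 libraries of Tnf, Il1rn and Il1b are separate within each fraction, and those of Tgfb1 overlap.

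Il10, which codes for the anti-inflammatory IL-10, was near the limit of detection and was seen only in total mRNA. Total mRNA held 7, 0 and 2 counts with IFNG and 7, 2 and 15 with IL4. The groups overlapped, and the ratio of the 9 to the 24 pooled counts was 0.479, with a counting interval of 0.196 to 1.07. All 6 polysome libraries had 0 counts of Il10, which allows up to 0.159 CPM over the IFNG polysome libraries and up to 0.234 CPM over the IL4 polysome libraries. These limits stand for 3 counts over the group. The pooled total level with IL4 was 0.523 CPM (95% counting interval 0.335 to 0.778), above its polysome limit, with 15 of its 24 counts in replicate 3. With IFNG it was 0.25 CPM (0.114 to 0.475), an interval that holds the polysome limit, with 7 of its 9 counts in replicate 1, so a lower level on polysomes was not detectable there. In edgeR with no filter, the adjusted p of this fraction difference was 0.127 with IL4 and 0.236 with IFNG.

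**Figure D2:**
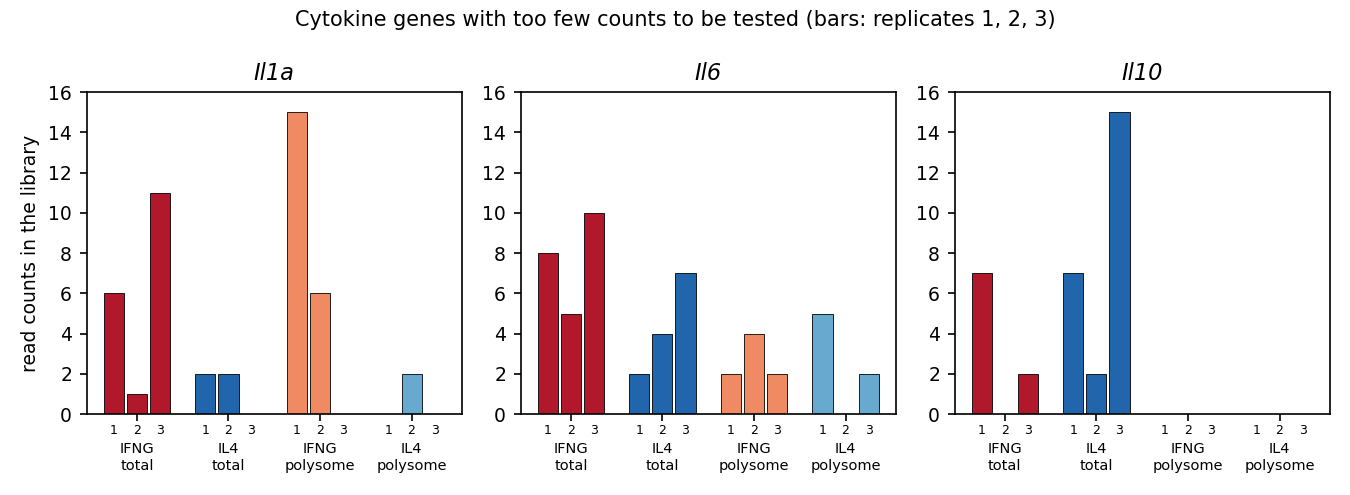
Raw counts of the 3 sparse genes, Il1a, Il6 and Il10, in each of the 12 libraries; each bar is a library, ordered by group and replicate. No library exceeds 15 counts, and the 6 polysome libraries have 0 counts of Il10.

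Tgfb1, the gene of TGF-beta 1, had overlapping levels in the 2 polarizations. Total mRNA held 21.1, 46.1 and 27.2 CPM with IFNG and 35.2, 26.8 and 20.0 CPM with IL4. The 6 libraries interleaved. The log2 difference was 0.20 (SE 0.49), with a 95% interval of -0.80 to 1.21 that spans 0 (adjusted p = 0.903).

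On polysomes Tgfb1 was at 27.0, 67.1 and 138 CPM with IFNG and 37.6, 59.1 and 58.2 CPM with IL4. The IFNG libraries spanned a wider range than the IL4 libraries and held both the lowest and the highest value. The log2 difference was 0.58 (SE 0.49, adjusted p = 0.494). In the IFNG polysome replicates 1, 2 and 3, Lars2 took 1.78, 12.8 and 29.3% of the counts, in the same order as the Tgfb1 levels. The orders did not match in the other groups. Total counts of these IFNG polysome libraries fell from 8789480 to 4898268 and 3189688, while Tgfb1 had 306, 319 and 374 counts. The part of Lars2 or of depth in the Tgfb1 levels was not tested. The mean was 77.4 ± 56.3 CPM in IFNG polysome, 51.7 ± 12.2 in IL4 polysome, 31.5 ± 13.0 in IFNG total and 27.3 ± 7.60 in IL4 total libraries, and the 2 groups of each fraction lay within their spread of each other.

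In all, 2 of the 7 genes, Tnf and Il1rn, were called higher with IFNG in total mRNA, where 7.08% of all tested features were called higher and 3.93% lower. The same 2 genes were called higher on polysomes, where the shares over all tested features were 7.54% higher and 6.58% lower. None of the 4 tested genes was called lower by edgeR in either fraction, at an unadjusted p under 0.05, or by DESeq2, and limma on the deposited values called 0 lower as well. The median log2 difference of the 4 was 3.21 in total mRNA beside 0.04 over all tested features, and 3.08 on polysomes beside -0.06.

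**Figure D3:**
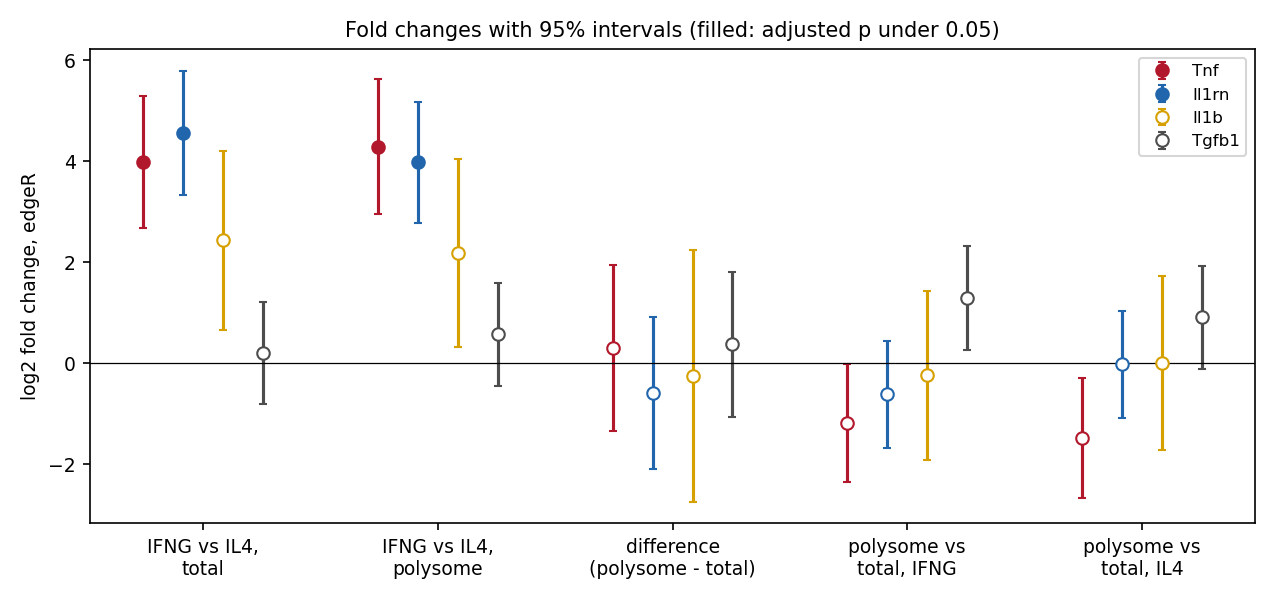
EdgeR log2 fold changes of Tnf, Il1rn, Il1b and Tgfb1 with 95% intervals for IFNG against IL4 in each fraction, the difference of these between fractions, and polysome against total mRNA in each polarization; filled symbols have an adjusted p under 0.05. Tnf and Il1rn are filled in both IFNG against IL4 comparisons, where the intervals of Tgfb1 cross 0.

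The IFNG to IL4 difference was then compared between polysome-associated and total mRNA, which asks whether polarization moved a cytokine mRNA on polysomes beyond its change in total mRNA. The difference of the 2 log2 fold changes was 0.30 for Tnf (95% interval -1.34 to 1.94), -0.59 for Il1rn (-2.09 to 0.91), -0.25 for Il1b (-2.73 to 2.24) and 0.38 for Tgfb1 (-1.05 to 1.80). All 4 adjusted p-values were 1.00. The intervals are wide: for Tnf they allow a shift of more than 2-fold either way. In this comparison edgeR called 0% of all tested features higher and 0% lower, with 176 features at an unadjusted p under 0.05. DESeq2 called 0 features higher and 1 lower, as did limma, and none of the 4 genes was at an unadjusted p under 0.05 by any of the 3 tools.

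Within a polarization, the polysome level was set beside the total level for each gene. As a description only, polysome levels were divided by the total levels that carry the same replicate number, which the tests did not pair. With IL4 the log2 ratio of Tnf was -1.49, -1.84 and -1.02, and with IFNG it was -1.92, -1.40 and -0.10. All 6 ratios were below 0, but the polysome and total levels of Tnf overlapped in both polarizations when the numbers were set aside. The fitted difference was -1.48 with IL4 (adjusted p = 0.0564) and -1.18 with IFNG (adjusted p = 0.125). Neither passed the threshold, though with IL4 the Tnf difference passed under most other settings, DESeq2 among them (adjusted p = 0.0297). With IL4 only 9 of 21 alternatives left it uncalled, and with IFNG 20 of 21 did. The exception with IFNG was the edgeR fit that blocked same-numbered total and polysome libraries as a preparation (adjusted p = 0.0477).

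Tgfb1 had the opposite sign. Its log2 ratio was 0.35, 0.54 and 2.34 with IFNG and 0.10, 1.14 and 1.53 with IL4, above 0 in all 6. The fitted difference was 1.29 with IFNG (95% interval 0.27 to 2.31, adjusted p = 0.0567) and 0.92 with IL4 (-0.10 to 1.93, adjusted p = 0.159). The polysome and total levels did not overlap in the IL4 libraries and overlapped in the IFNG libraries. With Lars2 left out before scaling, the IFNG value was 1.23, and it was called in DESeq2 (1.33, adjusted p = 0.039).

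Il1rn had log2 ratios of -0.44, -0.21 and -1.26 with IFNG and 0.17, -0.14 and -0.62 with IL4. The IFNG polysome levels lay below all IFNG total levels, at a fitted -0.61 (adjusted p = 0.397), and the IL4 value was -0.02 (adjusted p = 0.979). Il1b had ratios of -0.57, 0.81 and -1.58 with IFNG and -0.32, 0.31 and -0.38 with IL4, on both sides of 0 in each polarization. Its fitted values were -0.24 (adjusted p = 0.847) and 0.01 (adjusted p = 0.997).

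In these fraction comparisons edgeR, with no pairing of libraries, called none of the 4 genes. Over all tested features it called 8.93% higher and 17% lower on polysomes with IFNG, and 13.2% higher and 15.9% lower with IL4. At an unadjusted p under 0.05 were Tgfb1 (higher) and Tnf (lower) with IFNG, and Tnf (lower) with IL4. DESeq2 called 1 gene in each polarization, Tgfb1 with IFNG and Tnf with IL4, and limma called 0 in each.

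**Figure D4:**
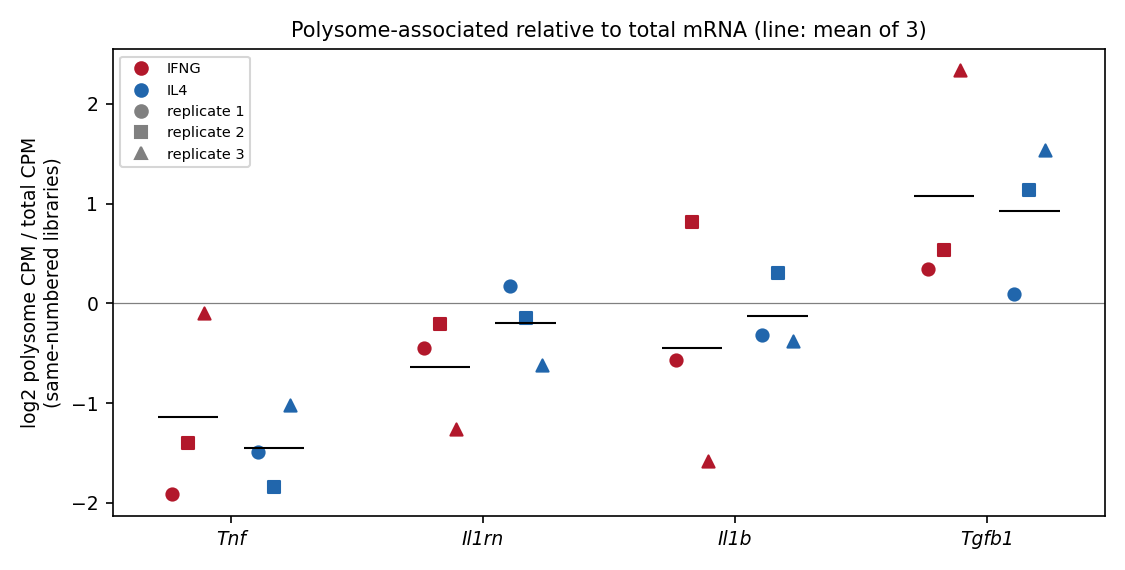
Log2 ratio of polysome to total level in same-numbered libraries for the 4 tested genes, colored by polarization; each symbol is 1 replicate number, shown by its shape, and lines are means of 3. The numbers were not paired in the tests; Tnf lies below 0 in all 6 ratios and Tgfb1 above 0 in all 6.

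The balance of opposing cytokines was described by 2 ratios of counts within a library, and 4 comparisons were made with exact two-sided permutation tests, which cannot go below p = 0.10 with 3 libraries against 3. The ratio of the IL-1 agonists (Il1a plus Il1b, with 0.5 added to each side) to Il1rn in total mRNA was log2 -6.48, -6.61 and -6.52 for IFNG and -3.90, -4.66 and -8.18 for IL4. The IFNG libraries were nearly alike, and the IL4 libraries lay on both sides of them, the lowest (replicate 3) resting on 1 count of Il1b and 0 of Il1a. The means were -6.54 ± 0.07 and -5.58 ± 2.28, a difference of -0.96 (exact permutation p = 0.40, n = 3 per group, adjusted p = 0.40). On polysomes the means were -6.30 ± 0.72 and -4.95 ± 1.44, a difference of -1.35 (exact permutation p = 0.30, adjusted p = 0.40). The IL4 polysome replicate 3 library had 0 counts of both agonists, so its ratio of -6.57 is set by the added 0.5 and Il1rn. The spread of the IL4 ratios rests on these sparse libraries in both fractions.

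The ratio of Tnf to Il10 counts was higher in each IFNG library than in any IL4 library. In total mRNA it was log2 11.23, 14.88 and 11.51 with IFNG and 7.96, 8.52 and 4.91 with IL4. The value of 14.88 belongs to IFNG replicate 2, which had 0 counts of Il10, and is set by Tnf and the added 0.5. The difference of the means, which includes it, was 5.41 (exact permutation p = 0.10, the smallest possible, adjusted p = 0.20). The polysome difference of 4.93 (exact permutation p = 0.10, adjusted p = 0.20) rests on Tnf and the added 0.5 alone, since Il10 had 0 counts in all 6 polysome libraries. It thus repeats the Tnf difference in raw counts, which also follow library depth, and cannot measure a balance with Il10.

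The features with levels most like each tested gene were named by Pearson's r of log2 CPM over the 12 libraries, as a description. The libraries share groups, fractions and depth, so r mostly follows the group means. Tnf was most like Ccrl2, Daxx and Icam1 (r = 0.98 for each). Icam1, an adhesion molecule for leukocytes, averaged 1343 CPM in IFNG total, 149 in IL4 total, 1038 in IFNG polysome and 93.9 in IL4 polysome libraries. Il1rn was most like Acod1 (r = 0.98), the enzyme that makes itaconate, Ccl5 (r = 0.98), a chemokine, and Serpina3c (r = 0.97). Acod1 averaged 1256, 14.4, 1612 and 24.5 CPM in the same order of groups. Il1b was most like Cxcl2 (r = 0.95), a chemokine for neutrophils, Ms4a7 (r = 0.93) and the receptor gene Tlr2 (r = 0.93). Tgfb1 was most like Ttyh3 (r = 0.95), Nacc1 (r = 0.94) and Mnt (r = 0.93). Mnt averaged 18.3 CPM with IFNG and 17.9 CPM with IL4 in total mRNA, and 44.6 and 43.9 CPM on polysomes.

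The receptors and signalling genes of each cytokine were read from lists chosen by function. Each count stands beside the shares over all tested features, 7.08% higher and 3.93% lower in total mRNA and 7.54% higher and 6.58% lower on polysomes. Of 16 TNF pathway genes 15 were tested (not Adam17), and 4 were higher with IFNG in total mRNA. The same 4 were higher on polysomes: Cflar, which blocks caspase 8, Tnfaip3, a deubiquitinase that ends NF-kB signalling, Rhbdf2, which directs the TNF sheddase, and Birc3, a ubiquitin ligase of the TNF receptor complex. In total mRNA Cflar averaged 142 CPM with IFNG against 22.6 CPM with IL4, a log2 difference of 2.65 (SE 0.49, adjusted p = 0.00066). Tnfaip3 averaged 21.2 and 4.12 CPM (2.36, SE 0.46, adjusted p = 0.00104). The TNF receptor genes had opposite signs in total mRNA, and edgeR called neither in either fraction. Tnfrsf1a stood at 1.25 (adjusted p = 0.0519) and Tnfrsf1b at -0.82 (adjusted p = 0.401) in total mRNA. On polysomes 1 gene, the death domain adaptor Fadd, was lower with IFNG (-1.68, SE 0.43, adjusted p = 0.0108). The median of the 15 was 0.72 in total mRNA and 0.83 on polysomes, beside 0.04 and -0.06 over all tested features.

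Of 12 IL-1 pathway genes 10 were tested, since the receptor genes Il1r1 and Il1r2 did not pass the filter. Casp1, the protease that matures IL-1 beta, was higher with IFNG in total mRNA (70.5 and 17.0 CPM, log2 fold change 2.05, adjusted p = 0.00903) and on polysomes (1.92, adjusted p = 0.0187). Irak2, a kinase downstream of the IL-1 receptor, was also higher in both fractions (1.47 and 1.68). The adaptor Myd88 was called in total mRNA (312 and 116 CPM, 1.42, adjusted p = 0.0344). In total mRNA 3 of the 10 were higher, on polysomes 2, where 7.08% and 7.54% of all tested features were higher. The medians of the list were 0.21 and 0.33, beside 0.04 and -0.06 over all tested features. None was called lower by edgeR, with 1 at an unadjusted p under 0.05 in total mRNA and 2 on polysomes. In total mRNA it was Sigirr (log2 fold change -2.15, adjusted p = 0.0711). On polysomes they were Sigirr (-2.53, adjusted p = 0.0575) and Il1rap, a chain of the IL-1 receptor (-1.07, adjusted p = 0.102). DESeq2 called 1 lower in each fraction, and limma called 1 lower in total mRNA and 0 on polysomes.

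Genes of IL-6 and IL-10 signalling share Jak1, Stat3 and Socs3, and Jak1 was not tested. Socs3, the feedback inhibitor of the IL-6 receptor chain, averaged, in total mRNA, 48.9 CPM with IFNG against 4.68 CPM with IL4, a log2 difference of 3.39 (SE 0.56, adjusted p = 0.000182) and was higher on polysomes too (3.21, adjusted p = 0.00133). Stat3, the transcription factor of both cytokines, was higher in total mRNA (202 and 54.4 CPM, 1.89, adjusted p = 0.00347) and on polysomes (1.71, adjusted p = 0.00754). Il10ra, the ligand-binding chain of the IL-10 receptor, averaged 118 and 23.9 CPM in total mRNA (2.31, adjusted p = 0.000511) and was higher on polysomes (2.66, adjusted p = 0.000168). Nfil3, a transcription factor that IL-10 is known to induce, was lower with IFNG on polysomes (-2.19, adjusted p = 0.0302). In total mRNA its difference was -1.91 and just missed the threshold (adjusted p = 0.0501). In the IL-6 list 2 of 6 tested genes were higher in each fraction, and in the IL-10 list 3 of 9, beside 7.08% of all tested features in total mRNA and 7.54% on polysomes. Socs3 and Stat3 count in both lists. EdgeR called 0 genes of the IL-6 list lower in each fraction. In the IL-10 list it called 0 lower in total mRNA and 1 on polysomes, beside 3.93% and 6.58% of all tested features. DESeq2 called 1 of the IL-10 list lower in each fraction. Il6st, of the IL-6 list, was lower in total mRNA at an unadjusted p under 0.05 only (-1.13, adjusted p = 0.13). The medians were 1.10 and 0.84 for the IL-6 list and 0.95 and 1.04 for the IL-10 list in total mRNA and on polysomes, beside 0.04 and -0.06 over all tested features.

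Of 22 genes for TGF-beta processing, receptors and SMADs 20 were tested, and 4 were higher with IFNG in total mRNA and 6 on polysomes, where 7.08% and 7.54% of all tested features were higher. None was called lower by edgeR. At an unadjusted p under 0.05, 1 was lower in total mRNA and 0 on polysomes, and DESeq2 and limma each called 1 lower in total mRNA and 0 on polysomes. Tgfbr1, the type I receptor, averaged, in total mRNA, 144 ± 42.1 CPM with IFNG against 26.3 ± 1.63 CPM with IL4, a log2 difference of 2.46 (SE 0.43, adjusted p = 0.000371), and 248 and 31.9 CPM on polysomes (2.95, adjusted p = 6.5e-05). Acvrl1, a type I receptor of the same family, averaged 387 and 64.4 CPM in total mRNA (2.59, adjusted p = 0.00332) and was higher on polysomes (2.75). Itgb8, a chain of an integrin that releases latent TGF-beta, had 133 total mRNA counts with IFNG and 2 with IL4, a ratio of 84.9 (95% counting interval 23.1 to 709). Its polysome libraries held 199 and 1 counts, a ratio of 135 (24.0 to 5377). The repressor Tgif1 was called in total mRNA (1.38, adjusted p = 0.0201) and Smad3, a signal transducer, on polysomes (1.76, adjusted p = 0.03). The median over the list was 0.79 in total mRNA and 1.15 on polysomes, beside 0.04 and -0.06 over all tested features, while Tgfb1 itself, which is not in the list, stood at 0.20 and 0.58.

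The 15 regulators of cytokine mRNA decay and translation were all tested, and edgeR called 0 between the polarizations in either fraction. At an unadjusted p under 0.05 in edgeR, 0 differed in total mRNA and 2 on polysomes, 1 higher and 1 lower with IFNG. On polysomes DESeq2 called 1 higher and 0 lower, and limma called 0. The higher of the 2 in edgeR was Mapkapk2 (a log2 difference of 1.18, adjusted p = 0.062). Zfp36l1, an AU-rich element binding protein and the most abundant of them by counts, averaged 352 ± 220 CPM in IFNG total and 320 ± 53.5 in IL4 total libraries. On polysomes it averaged 488 ± 380 CPM with IFNG against 1292 ± 800 CPM with IL4 (a log2 difference of -1.40, adjusted p = 0.108), and was 1 of the 2 at an unadjusted p under 0.05 there. The difference of polarization effects between fractions was called for 0 genes of each of the 6 lists by edgeR, DESeq2 and limma, and at an unadjusted p under 0.05 were 0 genes by edgeR and 1 gene of the TNF list by each of DESeq2 and limma.

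Polysome and total levels of some pathway genes differed within a polarization. Over all tested features 8.93% were called higher and 17% lower on polysomes with IFNG, and 13.2% and 15.9% with IL4. With IFNG, higher and lower calls were 1 and 2 of 15 TNF genes, and 1 and 1 of 10 IL-1 genes. They were 1 and 1 of 6 IL-6 genes and 0 and 2 of 9 IL-10 genes. The TGF-beta list had 1 and 1 of 20, the decay regulators 2 and 0 of 15. With IFNG, Tradd (-2.88, adjusted p = 0.0047) and Traf2 (-2.10), adaptors of TNF receptor signalling, were lower on polysomes, as were Socs3 (-2.04) and Il10rb (-1.90), the second IL-10 receptor chain. Tradd (-2.24), Traf2 (-1.92), Socs3 (-1.87) and Il10rb (-2.78) were called lower with IL4 too. With IL4 the higher and lower calls were 0 and 2 for TNF, 1 and 1 for IL-1, and 1 and 1 for IL-6. For IL-10 they were 1 and 2, for TGF-beta 0 and 2, and for the decay regulators 3 and 1. Il1rap, the second chain of the IL-1 receptor, was higher on polysomes in both (1.23 and 1.47). Also called with IFNG were Il6st (1.62), Skil (1.21) and Map3k7 (1.15), higher, and Nrros (-1.76) and Casp1 (-1.43), lower. Further calls with IL4 included Etv3, higher (1.55), and Irak1, lower (-1.27). Among the decay regulators Rc3h1 (Roquin-1) and Khsrp were higher on polysomes in both polarizations (1.54 and 1.12 with IFNG, 1.22 and 1.22 with IL4), and Zfp36l1 with IL4 (2.01, adjusted p = 0.0143), while Mapkapk2 was lower with IL4 (-1.46, adjusted p = 0.014).

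**Figure D5:**
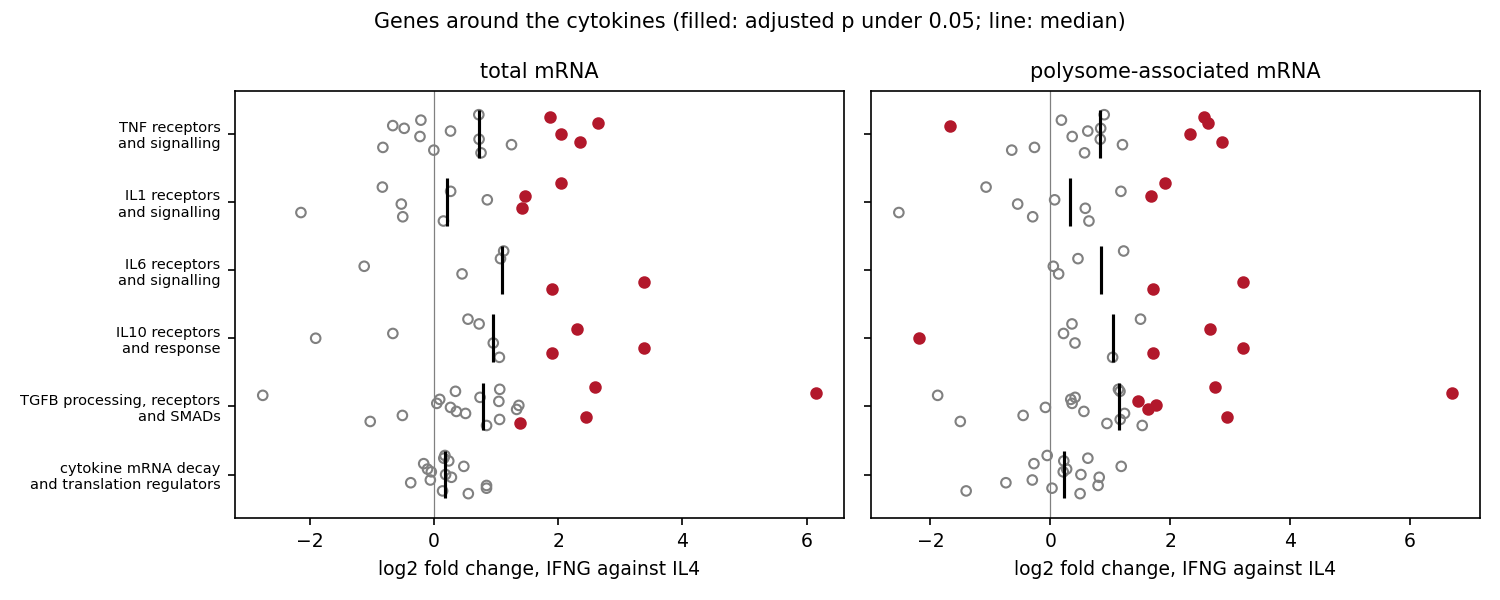
Log2 fold change of IFNG against IL4 for each tested gene of the 6 pathway lists, in total and polysome-associated mRNA; each point is a gene, filled where called, and lines are list medians. The decay and translation regulators hold no called gene in either fraction, and the TGF-beta list holds 4 in total mRNA and 6 on polysomes.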

How the data were processed

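The 12 libraries (SmartSeq2, 4 groups of 3) were grouped by the polarization, RNA source and replicate number in their labels, which spell IFNG also as INFG. The deposited tables hold unnormalized read counts for each gene symbol, per the file headers, and the counts are whole numbers. A second column holds the authors' log2 values after TMM normalization, per the file headers, given for 11006 of the 19549 features and for 6 of the 7 cytokine genes (not Il10). Per the submitters' processing notes, the names HISAT2, HISAT, limma and mm10 are listed with no versions. Which program counted reads, on which annotation and with what strand setting is not given in the sources used here, so reads of overlapping or antisense genes cannot be told apart. A total of 830 features join several symbols.

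The counts were fitted with edgeR 4.0.16 under R 4.3.3: filterByExpr, TMM scaling and a robust quasi-likelihood model of the 4 groups over all 12 libraries, with Benjamini-Hochberg adjustment over 10421 features and a threshold of 0.05; a feature past it is said to be called. Levels are CPM on TMM-scaled libraries. Pooled counts of sparse genes carry 95% exact counting intervals, and a group at 0 is given as 3 counts, which cover counting error only. DESeq2 1.42.0, limma 3.58.1 on the deposited log2 values, other scalings, no filter, replicate blocks and leaving out each library were alternatives. The cytokine genes, lists and tests were chosen with earlier results of these data known. Named genes were the 7 cytokine genes, up to 4 called genes per list and comparison by size of change (or the most abundant where none was called), and the 3 features most like each tested gene, without joined or predicted ones. Further calls and uncalled list genes given by name were named after their values were seen, as was Lars2. The fitting was tested on simulated data. Same-numbered IFNG and IL4 libraries deviated together over 6984 features: the lowest correlation of deviations was 0.15 for total and 0.15 for polysome pairs, so a replicate block was also fitted. This pairing comes from the data and the shared numbers.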

Additional observations from a re-analysis of the deposited data

How the results depend on the processing

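Over 24 settings, 416 values of a gene in a comparison were recomputed: 364 kept direction and call, 0 calls were lost, 26 were gained and 26 changed sign, none of a called value. Tnf and Il1rn were called higher with IFNG under each alternative; adjusted p was 3.38e-12 to 0.00165 and 3.50e-16 to 0.00018 in total mRNA, and 1.88e-13 to 0.0013 and 1.89e-12 to 0.000853 on polysomes. With 1 library left out, Tnf ranged over 3.52 to 4.78 and 4.00 to 5.12, and Il1rn over 4.24 to 5.03 and 3.56 to 4.72. The replicate block (paired numbers) called Il1b in both fractions, as given in the results, and Tnf lower on polysomes with IL4 (-1.44, adjusted p = 0.0338); it changed no other call of a cytokine gene. For all features the block within a fraction raised lower calls in total mRNA from 410 to 800, and polysome calls to 1188 higher and 1223 lower, from 786 and 686. Il1b in total mRNA was also called with no filter (adjusted p = 0.00078), without IL4 total replicate 1 (3.74, 0.0196) and without IL4 polysome replicate 3 (0.0452), and on polysomes with no filter (0.00624) and without IL4 total replicate 3 (0.0432). In the fraction comparison with IFNG, 1 cytokine gene was called higher (Tgfb1) with upper-quartile factors (1.49, 0.0307), DESeq2 (0.039), no filter (0.0304), without IFNG polysome replicate 1 (1.70, 0.00679), or IFNG total replicate 2 (1.78, 0.0288), and 1 lower (Tnf) with preparations as the block (-1.15, 0.0477). With IL4, 1 was called lower (Tnf) with RLE factors (0.0477), Lars2 left out (0.0354), DESeq2, no filter (0.0137) and both replicate blocks (0.0338 and 0.0153). The counts of called cytokine genes ranged from 0 to 1 over left-out libraries; Tnf was called without IFNG polysome replicate 1 or 3, IFNG total replicate 2 or 3, IL4 polysome replicate 1 (-2.30) or IL4 total replicate 3 (-1.86). Same-numbered total and polysome libraries correlated at -0.07 to 0.43, so the tests did not pair them, and the fits with these blocks are alternatives only. Values that changed sign were all uncalled. In the IL4 fraction comparison Il1b was -0.058 with RLE, -0.19 without Lars2, -0.18 in DESeq2, -0.10 with only its libraries and -0.088 with preparations as the block, and Il1rn 0.066 with upper-quartile factors. With a library left out, Tgfb1 ranged over -0.24 to 0.42 in total mRNA and -0.052 to 0.99 on polysomes. The fraction difference ranged over -0.49 to 1.12 for Tnf, -1.55 to 0.77 for Il1b, -1.05 to 0.15 for Il1rn and -0.20 to 0.94 for Tgfb1. The polysome to total difference ranged over -0.82 to 0.16 for Il1b with IFNG, and with IL4 over -1.01 to 1.31 for Il1b and -0.76 to 0.44 for Il1rn. The causes were not tested. Counts over all features moved by more than 1.5 times for some libraries: lower calls in total mRNA to 237 without IFNG total replicate 2 and 273 without IL4 total replicate 3; higher polysome calls to 496 and 503 without IL4 polysome replicates 2 and 3; lower polysome calls to 355, 407, 438 and 351 without IFNG polysome replicates 2 and 3 and IL4 polysome replicates 2 and 3. In the fraction comparison with IFNG, higher calls moved to 467 with only its libraries, 348 and 602 without IFNG polysome replicates 2 and 3, and 297 without IFNG total replicate 1, and lower calls to 967 and 935 without IFNG polysome replicate 2 and IFNG total replicate 1. With IL4 they moved to 841, 689 and 515 higher and 1004, 1070 and 1047 lower without IL4 polysome replicate 3, IL4 total replicate 1 and IL4 total replicate 2. Without the filter the fraction difference was called for 1 feature higher and 4 lower. Levels per exon length were not run for want of exon lengths, and the ratios had no value without an added count where a count was 0. Il1a, Il6 and Il10 had at most 15 counts in any library, which limits their precision.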

Other observations

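Genes next to the cytokine genes in the RefSeq order were read as a description, chosen after the data were seen, with edgeR's adjusted p-values. Beside Tnf on chromosome 17, Lst1, expressed in leukocytes, averaged 213 ± 9.42 CPM with IFNG and 31.6 ± 8.89 CPM with IL4 in total mRNA (log2 fold change 2.75, adjusted p = 0.000332) and was higher on polysomes as well (2.11, adjusted p = 0.00523). Ltb, which codes for lymphotoxin beta, was at 3.19 ± 1.86 and 0.216 ± 0.142 CPM in total mRNA (adjusted p = 0.00837). Lta, for lymphotoxin alpha, was at 1.58 ± 0.488 and 0.207 ± 0.188 CPM without being called (adjusted p = 0.0981), and Nfkbil1 was at 46.5 ± 18.3 and 27.0 ± 6.64 CPM (adjusted p = 0.429).

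Near Il1a and Il1b, the phosphate transporter gene Slc20a1 averaged 71.5 ± 16 CPM with IFNG and 23.3 ± 6.09 CPM with IL4 in total mRNA (log2 fold change 1.62, adjusted p = 0.0188), and 162 and 33.8 CPM on polysomes (2.24, adjusted p = 0.00176). Ckap2l, which lies between Slc20a1 and Il1a, was at 5.89 ± 7.40 and 23.3 ± 16.1 CPM in total mRNA (-1.98, adjusted p = 0.101) and was lower with IFNG on polysomes, at 3.94 ± 3.25 and 22.3 ± 6.97 CPM (-2.44, adjusted p = 0.0406). Il1f5 and Il1f10, IL-1 family genes beside Il1rn, had 0 counts in all 12 libraries, as had Il19 and Il20, IL-10 family genes beside Il10. Tyms, the thymidylate synthase gene beside Il6, was lower with IFNG in total mRNA (6.96 ± 4.87 and 38.4 ± 10.0 CPM, -2.45, adjusted p = 0.0096) and on polysomes (-2.26, adjusted p = 0.0211). Dnajb6, Ube3c and Hadhb, also near Il6, were not called in either fraction. Nor were Psd4 beside Il1rn, Sirpa near Il1b, and Mapkapk2 and Dyrk3 near Il10. Over all tested features 7.08% were called higher and 3.93% lower in total mRNA, and 7.54% and 6.58% on polysomes. B9d2 and Ccdc97, which flank Tgfb1, were not called in total mRNA (adjusted p = 0.968 and 0.434) or on polysomes (0.729 and 0.851).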
